A study of Homo sapiens with 2 samples.

Results

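The SOX transcription factors described here are 10 genes of the SRY-related HMG-box family: SOX2, SOX4, SOX5, SOX6, SOX8, SOX9, SOX10, SOX11, SOX17 and SOX18. They were chosen by name, and every probe set that the platform annotation gives to 1 of them alone was read, 33 probe sets in all. The arrays held 19775 genes with such a probe set. RNA came from the human embryonic stem cell line HUES9, used at passage 32, grown as embryoid bodies for 10 days and then plated on fibronectin in chemically defined medium. The control outgrowth (control-OG) received the solvent DMSO at 0.01% throughout. The SB-431542 outgrowth (SB-OG) received SB-431542, which blocks the kinase activity of the activin-like type I receptors used by TGF-β, activin and nodal. The dose was 10 µM in the embryoid bodies and 1 µM in the outgrowth. Both were sampled at outgrowth passage 5, and 3 samples per condition were mixed and read on 1 Affymetrix array, so n = 1 per condition and no value below could be checked against replicates or tested.

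SOX proteins bind DNA through the HMG box, a domain that fits the minor groove and bends the helix. They usually act together with partner factors, and they are sorted into lettered subgroups by the sequence of that box. SOXB factors such as SOX2 maintain pluripotent and neural progenitor cells, SOXC factors act in neuronal and mesenchymal progenitors, and SOXD factors lack an activation domain of their own. SOXE factors act in neural crest, glia, cartilage and gonad, and SOXF factors act in endothelium and endoderm. In skeletal muscle SOX6 is known as a repressor of slow fibre genes, and SOX8 has been described in satellite cells, the stem cells of muscle.

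The intensities are the deposited linear values, and both arrays have the same trimmed mean of 150.02. A probe set was counted as above background when it exceeded a level drawn from 213 probe sets of sensory, hair and skin gene families taken as silent here, their 95th percentile. The level was 32.6 for control-OG and 27.6 for SB-OG. Lower values were raised to the level before subtraction, so a fold for a probe set above background on 1 array only is a lower bound, written "at least". Because the levels differ, a probe set just over the SB-OG level alone can get a slightly negative difference, which is no bound. The slow myosin gene MYH7, at -0.18, is such a case, and such values enter the list medians. All differences are on the log2 scale with control-OG subtracted from SB-OG. Levels of different probe sets are not set against each other. The summed intensities of lists given below do add such levels, so the brightest genes weigh most in them. The differences of probe sets for the same gene, above background on both arrays, varied with an SD of 0.46 over 4930 genes. This is a technical spread and no measure of biological error. The ratio of 3′ to 5′ GAPDH signal was 0.995 for control-OG and 0.958 for SB-OG. The samples carry no cell type label. Of the pluripotent cell markers NANOG was not above background, with 4.15 on the control array and 5.06 on the other. DNMT3B was above it on both arrays, at 119.6 and 149, and SALL4 and UTF1 on control-OG alone. POU5F1 and TDGF1 had no probe set assigned to them alone.

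By the brightest probe set of each gene, 7 of the 10 SOX genes exceeded background on an array at all, beside 63.2% of all genes, and 6 did so on both. By the same probe sets SOX8, SOX11, SOX2 and SOX6 were 2-fold or more higher in SB-OG. SOX5 and SOX9 were lower to that extent, SOX4 was within 2-fold, and SOX10, SOX17 and SOX18 were not above background on either array. The brightest SOX2 probe set passed the background level through SB-OG alone, while another SOX2 probe set was above it on both arrays. The 4 of 7 higher stood beside 12.4% of all 12499 genes above background, and the 2 of 7 lower beside 13%. The median log2 difference of the 7 genes was 1.23, beside -0.02 for all genes. Of the 33 SOX probe sets 19 were above background on at least 1 array, of which 7 were higher by 2-fold or more and 3 lower, beside 12.7% and 12% of all 23385 such probe sets. When SB-OG was rescaled on the hybridisation controls, which raised every gene by 0.47, 4 SOX genes were higher and 1 lower, and all genes split into 3017 higher and 909 lower in place of 1554 and 1626. In these mixed cultures, a change in how many cells express a gene and a change in RNA per cell cannot be told apart.

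**Figure D1:**
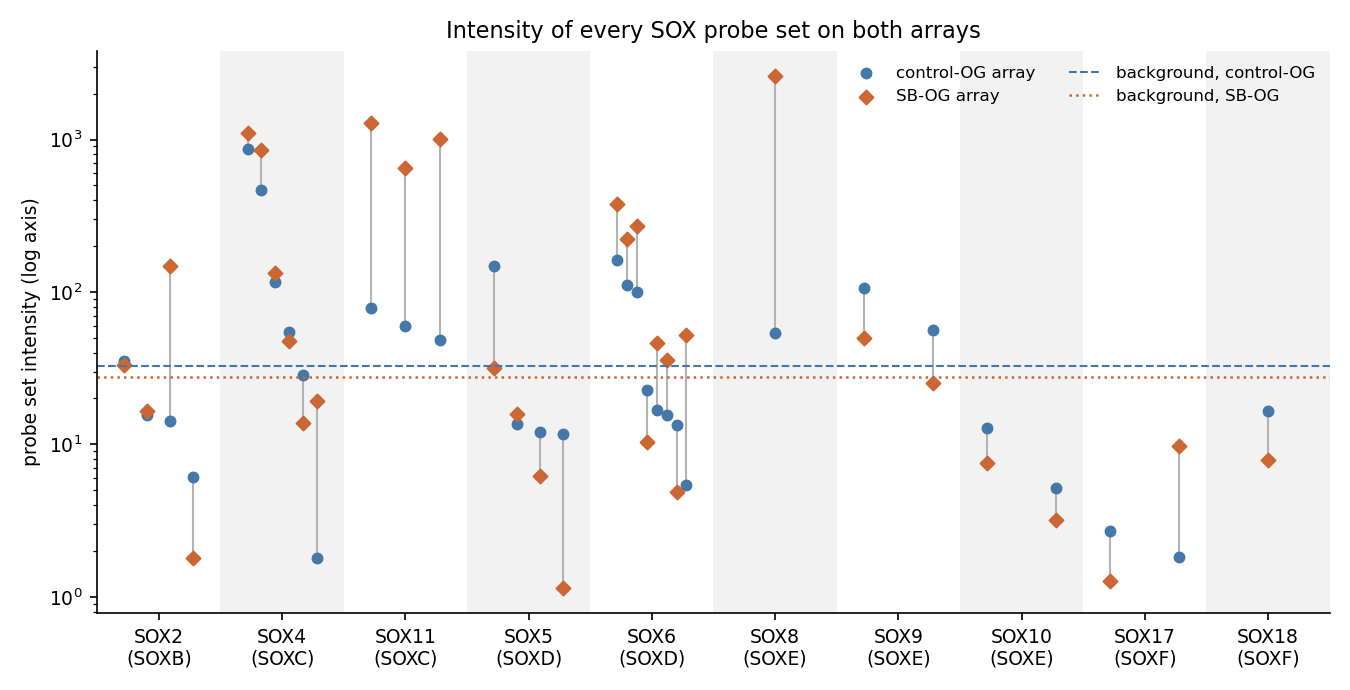
Intensity (log axis) of each of the 33 SOX probe sets on the control-OG array (blue circles) and the SB-OG array (orange diamonds), joined by a line, with the background level of each array as a horizontal line. SOX8 and all SOX11 probe sets lie far higher on SB-OG, and every probe set of SOX10, SOX17 and SOX18 lies under both background levels.

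Promoter sequences are shown for SOX2 and SOX6, which were higher in SB-OG, and for SOX4, which was within 2-fold. Among the SOX genes described here, promoter sequences were at hand for SOX2, SOX4, SOX5 and SOX6 only. Start sites that are also the outer end of the gene in RefSeq (GRCh38.p14) were used. The tabulated SOX5 start site and further SOX6 start sites are not such ends, and their sequences are not shown. Each sequence shown is the 250 bases before the start site, 5′ to 3′ on the gene's own strand. Capitals mark matches on either strand to the E-box CAGCTG bound by myogenic factors, the SMAD box CAGAC, the CCAAT box and the SOX core ACAAT. SOX2 lies on the plus strand at chr3:181711675-181711924, SOX4 on the plus strand at chr6:21593501-21593750 and SOX6 on the minus strand at chr11:16738478-16738727.
SOX2: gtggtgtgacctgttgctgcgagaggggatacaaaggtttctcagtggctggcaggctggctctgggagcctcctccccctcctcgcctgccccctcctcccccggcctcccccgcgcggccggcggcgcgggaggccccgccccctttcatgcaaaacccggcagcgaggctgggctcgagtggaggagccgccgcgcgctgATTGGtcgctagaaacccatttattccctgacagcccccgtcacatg
SOX4: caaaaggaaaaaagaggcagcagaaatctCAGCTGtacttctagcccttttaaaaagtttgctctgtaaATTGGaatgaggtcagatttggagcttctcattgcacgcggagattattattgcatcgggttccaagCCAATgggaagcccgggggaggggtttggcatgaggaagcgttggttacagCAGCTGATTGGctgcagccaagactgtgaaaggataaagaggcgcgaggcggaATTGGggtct
SOX6: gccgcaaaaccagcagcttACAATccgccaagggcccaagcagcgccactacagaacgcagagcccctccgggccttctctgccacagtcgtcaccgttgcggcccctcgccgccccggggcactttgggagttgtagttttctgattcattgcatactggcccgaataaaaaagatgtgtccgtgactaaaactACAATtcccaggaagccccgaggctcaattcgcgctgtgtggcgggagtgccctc

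The SOX4 window held 2 E-box matches, starting 221 and 63 bases before the start site, and 4 CCAAT box matches, starting 181, 114, 57 and 10 bases before it. The second E-box ran directly into the CCAAT box at 57, and no match overlapped another in these windows. The SOX2 window held 1 CCAAT box match, 47 bases before the start site. The SOX6 window, at the outermost of its tabulated start sites, held 2 SOX core matches, starting 231 and 55 bases before that site, and no E-box match. No SMAD box letters were found in any of these windows. Of 35116 promoter windows of this length, 14% held the E-box, 32% the CCAAT box, 24.6% the SOX core and 38% the SMAD box. These matches describe the letters only, and the arrays measured no binding.

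SOX2, the SOXB factor that works with POU5F1 in pluripotent cells and is kept in neural progenitors, was above background on SB-OG by its brightest probe set. Probe set 228038_at read 14.2 and 147 on control-OG and SB-OG, a bound of at least 4.52-fold. Probe set 213721_at read 35.0 and 33.3, a log2 difference of -0.07. The probe sets 213722_at (15.7 and 16.6) and 214178_s_at (6.08 and 1.81) were not above background on either array. The higher SOX2 signal in SB-OG therefore came from 1 of 4 probe sets.

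SOX4, a SOXC factor and a known transcriptional target of TGF-β in several epithelial cell types, was well above background on both arrays with little difference between them. Probe set 201417_at read 867 on control-OG and 1111 on SB-OG, 1.28-fold higher. Probe set 201416_at read 468 and 858, 1.83-fold higher. Those of 201418_s_at (117 and 133) and 213668_s_at (54.5 and 47.9) differed by 1.14-fold each, the first higher and the second lower in SB-OG. The SD over these 4 probe sets was 0.44 on the log2 scale, wider than the difference of 0.36 from the brightest. The other SOX4 probe sets, 1567906_at and 213665_at, were not above background.

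SOX11, the SOXC paralogue of SOX4 and a factor of immature neurons and mesenchymal progenitors, was higher in SB-OG by every probe set. Probe set 204914_s_at read 78.2 on control-OG and 1275 on SB-OG, 16.3-fold higher. For 204915_s_at the values were 60.1 and 646, 10.7-fold higher, and for 204913_s_at 48.2 and 1003, 20.8-fold higher. All 3 were above background on both arrays, with an SD of 0.48 between their log2 differences of 3.42 to 4.38. Of the 12499 genes above background, at least 134 had a higher difference than SOX11. Such counts are minimums, since bounds were ranked at their own value. The lowest of the 3 SOX11 differences was thus above the highest SOX4 difference of 0.87, and with 1 array per condition the gap between the paralogues was not tested.

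**Figure D2:**
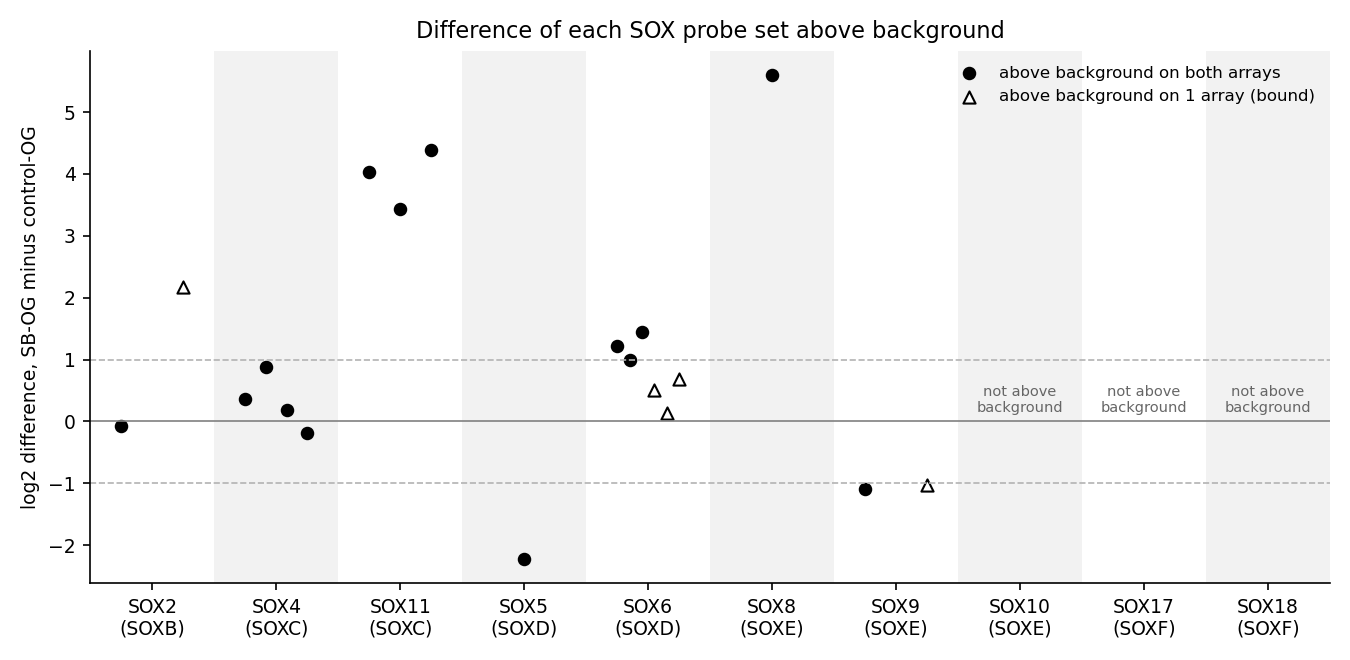
Log2 difference, SB-OG minus control-OG, of the 19 SOX probe sets above background, by gene, with dashed lines at 2-fold. Filled circles were above background on both arrays and open triangles on 1 only, where the value is a bound. The 3 SOX11 probe sets lie between 3.42 and 4.38, SOX8 lies at 5.60, and those of SOX5 and SOX9 lie below -1.

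The SOXD paralogues SOX5 and SOX6, which form dimers and act together with SOX9 in cartilage, differed in opposite directions. SOX6 probe set 227498_at read 162 on control-OG and 378 on SB-OG, 2.34-fold higher. For 228214_at the values were 99.9 and 272, 2.72-fold higher, and for 227497_at 112 and 223, just under the threshold at a log2 difference of 0.998. These 3 probe sets, above background on both arrays, had an SD of only 0.22 on the log2 scale.

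A further 3 SOX6 probe sets were above background on SB-OG alone, and their bounds were all under 2-fold. Probe set 223865_at read 5.43 and 52.4 (at least 1.61-fold), 235526_at read 16.7 and 46.2 (at least 1.42-fold), and 224178_s_at read 15.6 and 35.8 (at least 1.10-fold). These 3 passed the background level only through SB-OG, so their direction adds nothing to that of the 3 above background on both arrays. Probe set 1570486_at read 22.9 and 10.3 and 1563454_at read 13.5 and 4.90, not above background on either array. With the mean over all 8 probe sets the log2 difference of SOX6 was 0.79, no longer 2-fold.

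SOX5 was measured by 1 of its 4 probe sets. Probe set 238009_at read 148 on control-OG and 31.7 on SB-OG, 4.67-fold lower, and its SB-OG value was close to the background of 27.6. The others, 238285_at, 1569638_at and 207336_at, were between 1.15 and 15.8 on the arrays and not above background on either. A lower difference than that of SOX5 was found for at least 417 of the 12499 genes.

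SOX8, the SOXE factor with known roles in glia, gonad and muscle satellite cells, differed most of the SOX genes above background. Its only probe set, 226913_s_at, read 53.6 on control-OG and 2598 on SB-OG, 48.5-fold higher. At least 35 of the 12499 genes had a higher difference, a minimum because some of the others are bounds. No second SOX8 probe set stands beside this value, and the ending _s marks probes that can match more than 1 transcript.

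SOX9, the SOXE master regulator of cartilage, was lower in SB-OG, at 106 and 49.9 by 202936_s_at, a 2.13-fold difference. By 202935_s_at it read 56.2 and 25.1, at least 2.04-fold lower. Both probe sets carry the ending _s and gave a difference just past 2-fold. At least 1463 of the 12499 genes had a lower one. After rescaling on the hybridisation controls SOX9 was 1.54-fold lower, no longer 2-fold, whereas SOX5 was 3.37-fold lower. With a pseudocount of 16 in place of the floor, the log2 difference of SOX9 was -0.89.

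SOX10, the SOXE factor of neural crest and Schwann cells, was not above background. Probe set 209842_at read 12.9 on control-OG and 7.50 on SB-OG, and 209843_s_at read 5.18 and 3.18. Within the SOXE subgroup SOX8 was thus higher in SB-OG, SOX9 lower and SOX10 undetected on both arrays. No fold is given for SOX10.

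SOX17, the SOXF factor of endoderm and of arterial and haemogenic endothelium, read 2.71 on control-OG and 1.26 on SB-OG by 219993_at. By 230943_at it read 1.83 and 9.75. SOX18, a SOXF factor of blood and lymphatic vessels, read 16.6 and 7.93 by its only probe set, 219568_x_at. None of these reached the background level of either array, so neither gene was detectable with these probe sets.

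**Figure D3:**
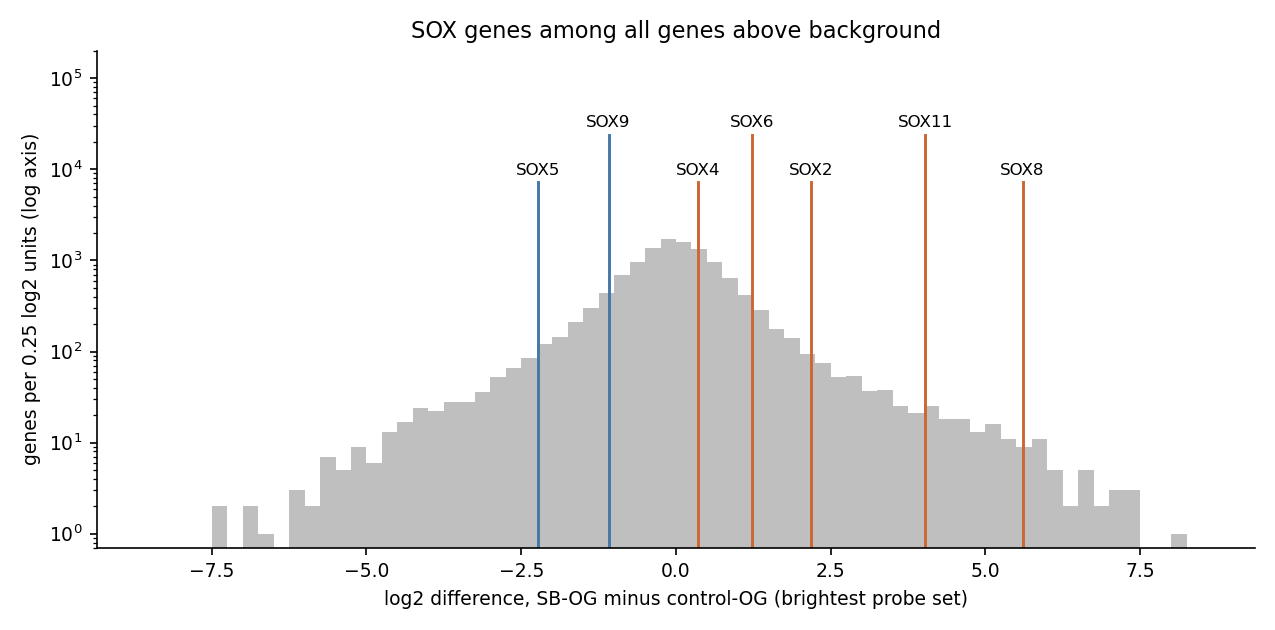
Log2 difference, SB-OG minus control-OG, of all 12499 genes above background on at least 1 array (grey bars, number of genes on a log axis), with the 7 SOX genes above background as lines at their brightest probe set. SOX8 at 5.60 and SOX11 at 4.03 lie in the upper tail, and SOX5 at -2.22 and SOX9 at -1.09 lie on the lower side.

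Genes whose difference was most like that of SOX8, among 10399 genes above background on both arrays, were DES, EPB41L3 and RASSF4. DES, the muscle intermediate filament gene, read 51.7 on control-OG and 2550.3 on SB-OG. EPB41L3, a membrane skeleton protein, read 38.1 and 1798, and RASSF4 read 99.5 and 4663. They lay within 0.05 of SOX8 on the log2 scale. The nearest to SOX5 were DAB2, an endocytic adaptor that read 3082 and 660.2, DNASE1L1 at 757 and 162, and the collagen receptor gene MRC2 at 3624 and 779. Likeness over 2 arrays is a single difference, which many genes share.

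Genes of the tissues in which these factors act were counted in the same way, from lists chosen with earlier results of these data known. Each list count below stands beside the 12.4% of all genes that were 2-fold higher and the 13% that were lower. Of 9 genes listed as myogenic regulators on the arrays 8 were above background. By 2-fold or more, 7 were higher in SB-OG and none lower (median 4.77). Most of the 8 passed the background level through SB-OG alone, so a lower call was not open to them. The list includes DES, a structural gene, which was among the 7. MEF2C, a MADS-box partner of MYOD1, was 85.8-fold higher, with its other probe sets at 6.84 and at least 4.15 on the log2 scale. MYOD1, the determination factor of muscle, was at least 35.4-fold higher, and EYA4, a transcriptional cofactor, at least 36.4-fold. The summed intensity of the 9 probe sets was 200.4 for control-OG and 11357 for SB-OG. The part of muscle cells in the SOX differences was not tested.

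For SOX6, the genes of slow and fast fibres are of interest because SOX6 is known to repress the former. Of 9 slow fibre genes 7 were above background, with 6 higher by 2-fold or more and none lower (median 5.89). CASQ2, MYOZ2 and MYH7 passed the background level through SB-OG alone, so a lower call was not open to them. ATP2A2 was among these 6 by 212361_s_at (887 and 3918). Its other probe sets went the other way, 209186_at 1.89-fold lower and 212362_at 1.10-fold lower. Of 10 fast fibre genes 7 were above background, also with 6 higher and none lower (median 4.82). Most of these 7 fast fibre genes passed the background level through SB-OG alone, so a lower call was not open to them. Slow troponin I TNNI1 read 53.7 on control-OG and 8620 on SB-OG, and slow and cardiac troponin C TNNC1 read 118 and 6950. Fast troponin C TNNC2 read 64.5 and 9869, and fast troponin I TNNI2 was at least 60.6-fold higher. Slow TNNI1 and TNNC1 and fast TNNC2, above background on both arrays, were thus higher on the array where SOX6 was higher. MYH7, the slow myosin heavy chain, read 9.11 and 28.7, against a background of 27.6 on SB-OG.

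Cartilage genes, the setting of SOX9, SOX5 and SOX6, were above background for 9 of 16. Past 2-fold, 3 of these were lower in SB-OG and 1 higher (median -0.64). COL11A1, a fibrillar collagen chain, read 6243 and 256, 24.4-fold lower, and RUNX2, a factor of hypertrophic cartilage and bone, read 346 and 56.2, 6.16-fold lower. HAPLN1, which links proteoglycan to hyaluronan, was at least 2.52-fold lower. COL2A1, the type II collagen gene and a direct SOX9 target, went the other way, at 23.8 and 153, at least 4.70-fold higher, with its other probe set at 2.43 and 69.6. HAPLN1 passed the background level through control-OG alone and COL2A1 through SB-OG alone, so the opposite call was not open to either. ACAN, the aggrecan gene, was near background at 33.3 and 49.7. The summed intensity of the 16 probe sets was 6970.2 for control-OG and 758 on SB-OG. COL11A1 alone made 6243 and 256 of these.

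Neural markers, the setting of SOX2 and SOX11, were above background for 9 of 15, with 7 higher in SB-OG by 2-fold or more and 1 lower (median 4.01). DCX, a microtubule protein of migrating neurons, was at least 42.7-fold higher, NEFM, a neurofilament subunit, 38.3-fold, and NES, an intermediate filament of neural and muscle progenitors, 26.6-fold. STMN2, a tubulin-binding protein of growing axons, went from 2606 to 24.3, lower in SB-OG by at least 94.4-fold. DCX, MAP2 and NEFL passed the background level through SB-OG alone, so a lower call was not open to them. STMN2 passed it through control-OG alone by its brightest probe set. Its other probe set, 203000_at, was above background on both arrays and 72.5-fold lower in SB-OG. The factors PAX6, OTX2, NEUROG1 and NEUROG2 were not above background. The summed intensity of the list was 7342 for control-OG and 20970.3 on SB-OG. Most of these came from TUBB3 (4141 and 6918, 1.67-fold higher), STMN2 (2606 and 24.3) and NES (321 and 8535). The part of this list in the SOX2 and SOX11 differences was not tested.

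Neural crest and Schwann cell markers, the setting of SOX10 and SOX8, were above background for 10 of 12, with 4 higher by 2-fold or more and 2 lower (median 0.54). ERBB3, the neuregulin receptor of Schwann cells, was at least 30.6-fold higher and NGFR, the low-affinity neurotrophin receptor, at least 3.27-fold. PAX3, also counted among the myogenic regulators, was at least 2.13-fold higher. ERBB3, NGFR and PAX3 passed the background level through SB-OG alone, so a lower call was not open to them. TFAP2A, above background on both arrays, was 2.51-fold higher by 204653_at and 1.12-fold by 204654_s_at. SNAI2, a factor of mesenchymal transition, was 3.09-fold lower and MITF, the melanocyte factor, 2.83-fold. CDH19 and TFAP2B, like SOX10, were not above background. The summed intensity was 4356 for control-OG and 2998 for SB-OG. SNAI2 alone made 3855 and 1248 of these.

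Endothelial markers, the setting of SOX17 and SOX18, were above background for 5 of 14, with 3 lower in SB-OG by 2-fold or more and none higher (median -3.66). The VEGF receptor gene KDR was at least 33.8-fold lower and FLT1, another VEGF receptor gene, 12.7-fold. The angiopoietin receptor gene TEK was at least 14.6-fold lower. KDR and TEK passed the background level through control-OG alone, so a higher call was not open to them. FLT1 was above background on both arrays. CDH5, VWF, CLDN5 and ERG were not above background on either array. The summed intensity was 2082 for control-OG and 148 on SB-OG. Endoderm markers were above background for 5 of 9, with GATA6 at least 21.8-fold lower, CXCR4 at least 2.06-fold higher, and FOXA2 and FOXA1 not above background. GATA6 passed the background level through control-OG alone and CXCR4 through SB-OG alone, so the opposite call was not open to either. CXCR4 was no longer 2-fold higher with quantile normalization, the higher background level or the mean of all probe sets. GATA4 was within 2-fold by its brightest probe set 230855_at (39.1 and 20.6). By 205517_at it read 92.1 and 2.22, at least 3.34-fold lower, again above background on control-OG alone. The endoderm list summed to 712 on control-OG and 155 on SB-OG, of which GATA6 made 602 and 16.9. Pluripotent cell markers were above background for 3 of 9, none 2-fold apart, and summed to 199 and 167. DNMT3B, a DNA methyltransferase, read 119.6 on control-OG and 149 on SB-OG, and SALL4 and UTF1 were above background on control-OG only.

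**Figure D4:**
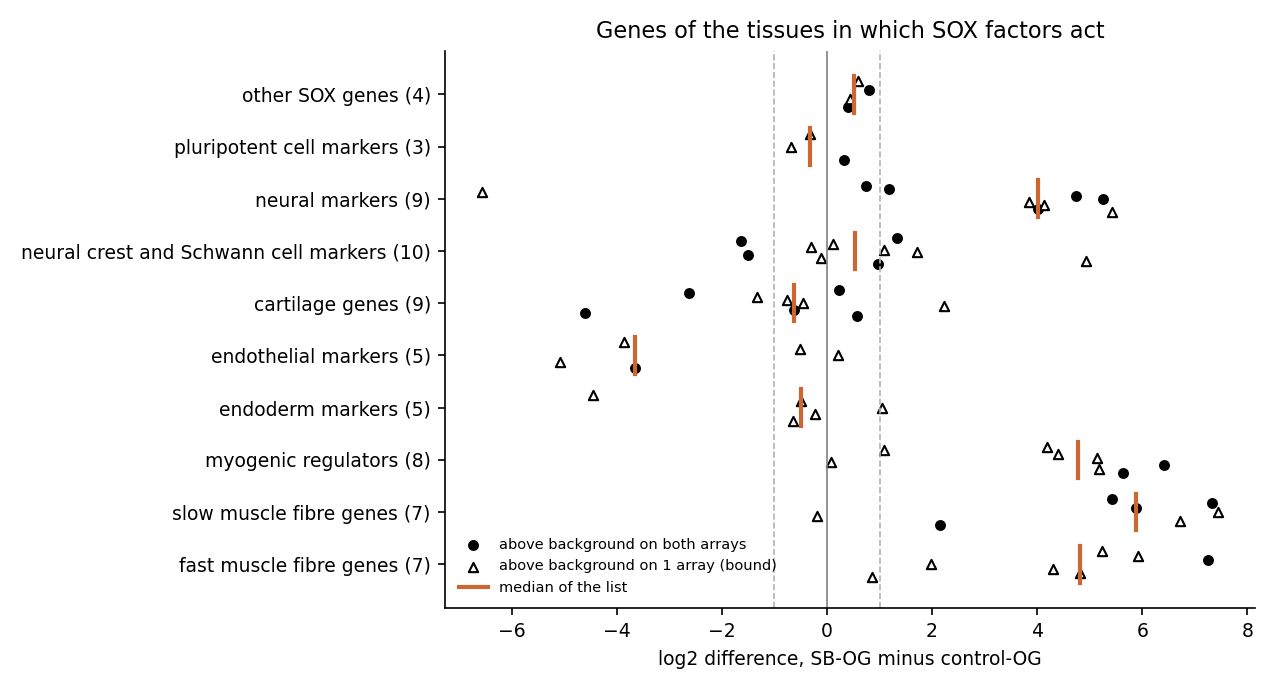
Log2 difference, SB-OG minus control-OG, of the genes above background in each of 10 lists, with their number in parentheses, the list median as an orange bar and dashed lines at 2-fold. Filled circles were above background on both arrays and open triangles on 1. A gene above background on 1 array could be called 2-fold only in the direction of that array. Muscle lists lie to the right with medians of 4.77, 5.89 and 4.82, and endothelial markers to the left with a median of -3.66.

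**Figure D5:**
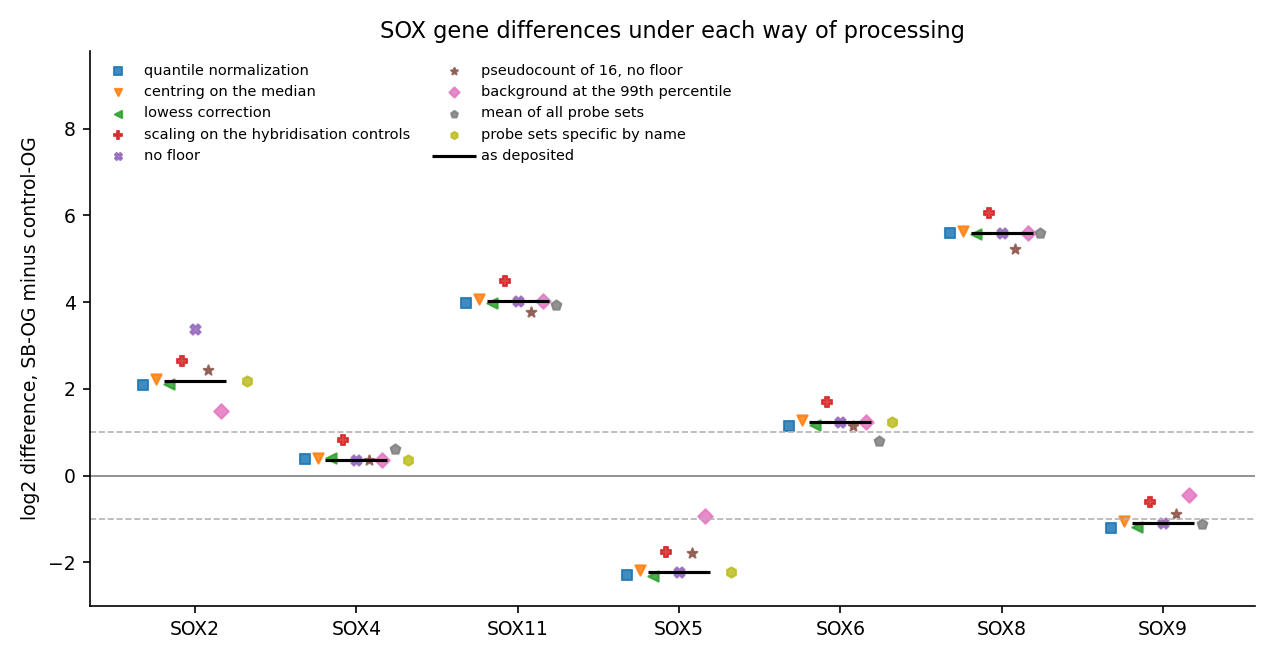
Log2 difference of the 7 SOX genes above background, as deposited (black bar) and under each alternative way of processing (coloured symbols), with dashed lines at 2-fold. SOX8 ranged from 5.23 to 6.07 and SOX11 from 3.78 to 4.50, whereas SOX9 ranged from -1.21 to -0.46 and SOX5 from -2.31 to -0.94.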

How the data were processed

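The values are deposited linear intensity values, 54675 probe sets on each of 2 arrays. How probes were summarised is not given in the sources here. Per the labels' protocols, total RNA was purified on columns and biotin-labelled. Groups came from the sample titles. Probe sets with 1 gene in the platform annotation were used (41091), with symbols updated by gene ID. Each gene was represented by its brightest probe set (by mean log2 value). The background came from 172 genes: beta-defensins, late cornified envelope genes, keratin-associated proteins, and olfactory and taste receptors. With 1 array per condition no test was made.

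The members and lists were chosen with earlier results of these data known. All SOX genes were named, with up to 4 genes per list at least 2-fold apart and largest in difference, and the 3 genes nearest SOX8 and SOX5. Other names were picked with values in view. Alternatives tried were quantile normalization, median centring, a lowess correction with a span of 0.4, scaling on 18 hybridisation control probe sets, no floor, a pseudocount of 16, a background at the 99th percentile, only probe sets with no _a, _s or _x ending, the mean of all probe sets, and a threshold of 3-fold. The gene counting was tested on simulated data. Software: statsmodels 0.14.6 for lowess, pandas 2.3.3 and numpy 2.4.6 in Python 3.11.15, and matplotlib 3.10.9 for plots. Having only 2 arrays limits the precision.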

Additional observations from a re-analysis of the deposited data

How the results depend on the processing

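No paired analysis was possible because each condition has 1 array. The directions of SOX2, SOX5, SOX6, SOX8, SOX9 and SOX11 held under each alternative that gave them a value. SOX8 and SOX11 stayed over 2-fold in all of these. However, SOX8, SOX11 and SOX9 have only probe sets with _s in their names. They gave no value when such probe sets were left out, and the lower gene that remained was SOX5. Without those probe sets 4 SOX genes remained above background, 2 higher and 1 lower in SB-OG, with 3 probe sets higher and 1 lower, while of all 9449 genes 1283 were higher and 1192 lower. With the mean of all probe sets 5 SOX genes were above background, 2 higher and 1 lower, SOX2 and SOX5 dropping under it, and of all 10991 genes 1262 were higher and 1304 lower. With the background at the 99th percentile, 52.2 on control-OG and 77.3 on SB-OG, 0 SOX genes and 0 probe sets were lower, since the SB-OG values of SOX5 and SOX9 are under that level, and of all 10617 genes 1349 were higher and 1186 lower. Scaling on the hybridisation controls, the pseudocount and the 3-fold threshold each left 1 SOX gene and 1 probe set lower, and the first gave a median of 1.70. Of all 12499 genes, 3017 were higher and 909 lower with that scaling, 1637 and 1614 with the pseudocount, and 791 and 795 at 3-fold. SOX2 ranged from 1.49 to 3.37, the highest value being that without a floor. Values near background, those of SOX5 on SB-OG and of SOX2 on control-OG, limit what their folds can show.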

Other observations

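Other SOX genes were near background. Of 9 further family members, SOX12, SOX13, SOX15 and SOX30 were above it on at least 1 array by their brightest probe set, and none was 2-fold apart. SOX12, a SOXC factor like SOX4 and SOX11, read 34.7 on control-OG and 46.0 on SB-OG by 228358_at, and 15.6 and 64.3 by 204432_at. SOX13, the third SOXD factor, read 27.4 and 44.3 by 38918_at. SOX15 read 35.2 and 61.7 by 217040_x_at, and SOX30 read 9.41 and 49.1 by 1559235_a_at. When SB-OG was rescaled on the hybridisation controls, 2 of these genes were 2-fold higher.

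SOX1, a SOXB factor of neural progenitors, read 1.63 and 41.9 by probe set 237472_at, above background on SB-OG, while its brightest probe set 230982_at read 28.7 and 17.5 and was not above it. SOX3, SOX7, SOX14 and SOX21 were not above background on either array. The overlapping and antisense transcripts SOX2-OT (6.93 and 12.2), SOX9-AS1 (1.71 and 2.88 by 230419_at) and SOX21-AS1 (1.87 and 5.31) were under it as well.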
